A study of Mus musculus with 16 samples.

Results

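The RNAs of developmental transcription factor families were examined in the significant RNA–DNA pairs of H3K27me3-RADIP and of Input from mouse embryonic stem cells (mESCs). They were taken by a rule on the name, set with earlier results of these data known. A protein-coding RNA (pcRNA) was taken when its name belonged to the Hox clusters a to d, to the Fox classes a to s, or to the Pax, Lhx, sine oculis homeobox, Gata, Nkx, Tbx, Sox, Irx, Meis, Pbx, Dlx, Otx, Pitx, Zic, Msx, Cdx, Barx, Lmx or Pou families, followed by a number. Sox2, Tbx3 and Pou5f1 were left out. Of 10736 pcRNAs and 12080 RNA names listed in either table, 84 met this rule. A further 126 annotated genes of the same families, of 210 in all, were listed in neither table.

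RADIP links an RNA to the chromatin DNA beside it through an adaptor and then selects the linked molecules with an antibody, here against the histone mark H3K27me3, whereas Input was made from a portion of the same lysate that was not exposed to the antibody. All libraries came from 1 line of mESCs, PGK12.1, grown with Leukemia Inhibitory Factor and fixed with 1% formaldehyde. There were 8 libraries per condition in the labels and 4 biological replicates per condition in the paper's results. How the libraries fall into these replicates is not given in the sources used here. The authors merged the libraries of a condition and deposited 1 table each, with 1305107 pairs for Input and 1415135 for H3K27me3-RADIP, of which 1261178 and 1359456 had an RNA tag in a pcRNA. Each line joins 1 RNA tag to 1 DNA tag, and such a pair is listed when the combination of its RNA and the 25-kb bin that holds its DNA tag passed the authors' limit on the q-value of 0.1. The smallest listed combination had 7 pairs in both tables, so an RNA that is not listed may still have had contacts below this limit. Because replicates were merged, no spread between replicates and no test can be given. The intervals below are 95% intervals, Wilson for shares and exact binomial for ratios. They cover counting error alone, and those for shares of RNAs treat the RNAs as independent, although neighbouring Hox genes share bins. Pairs made from 1 molecule by amplification cannot be told apart in these tables.

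The genes of these families encode DNA-binding proteins that set the identity of tissues and body segments. In embryonic stem cells many of them are classical targets of Polycomb repressive complex 2 (PRC2), which places H3K27me3, often at starts rich in CpG dinucleotides, and they are transcribed at low levels until differentiation. An RNA tag paired with DNA of its own gene can come from an RNA that is still being made, so pairs with the gene's own DNA and pairs with distant DNA are given separately.

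The stem cell label was compared with marker genes. Of 16 markers of mESCs, 7 were listed in Input and 9 in H3K27me3-RADIP, with 3090 and 3291 pairs, most of them from Esrrb with 2388 and 2500. Pou5f1, Nanog, Tdgf1, Dppa4, Dppa5a, Utf1 and Prdm14 were listed in neither table. Of 11 markers of extraembryonic or differentiated cells, 3 were listed in Input and 4 in H3K27me3-RADIP, with 49 and 89 pairs, from Gata4, Gata6 and Nes in both tables and Pax6 in H3K27me3-RADIP. The pairs of Gata4, Gata6 and Pax6 are among those described below, and a part of differentiated cells in their counts was not tested.

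The 250 bases before the start site are shown for 6 genes, in RefSeq's record of build GRCm38.p6, 5′ to 3′ on the gene's strand and with each CG dinucleotide in capitals. Tbx1, Pax6 and Sox11 are shown because their RNAs had the most DNA tags within 2 kb of their own start among genes of 30 kb or less, Hoxd3 as the Hox RNA with the most pairs, and Lhx6 and Sox6 as those with the highest and the lowest ratio of H3K27me3-RADIP to Input, all chosen among the 38 RNAs whose RefSeq start lies within 2 kb of the annotated gene start. They lie at chr16:18590672-18590921 on the minus strand for Tbx1, chr2:105668646-105668895 on the plus strand for Pax6, chr12:27342719-27342968 on the minus strand for Sox11, chr2:74711743-74711992 on the plus strand for Hoxd3, chr2:36105409-36105658 on the minus strand for Lhx6 and chr7:116038745-116038994 on the minus strand for Sox6.
Tbx1: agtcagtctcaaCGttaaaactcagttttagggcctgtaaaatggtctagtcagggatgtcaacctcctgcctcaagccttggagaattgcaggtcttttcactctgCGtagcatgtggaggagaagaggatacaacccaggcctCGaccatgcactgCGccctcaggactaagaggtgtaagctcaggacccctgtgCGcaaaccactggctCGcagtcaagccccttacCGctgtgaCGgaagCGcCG
Pax6: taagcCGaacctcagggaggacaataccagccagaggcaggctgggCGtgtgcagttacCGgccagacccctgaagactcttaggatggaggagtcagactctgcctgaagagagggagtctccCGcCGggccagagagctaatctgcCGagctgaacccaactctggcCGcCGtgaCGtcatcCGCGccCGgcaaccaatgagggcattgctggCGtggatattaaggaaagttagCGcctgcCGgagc
Sox11: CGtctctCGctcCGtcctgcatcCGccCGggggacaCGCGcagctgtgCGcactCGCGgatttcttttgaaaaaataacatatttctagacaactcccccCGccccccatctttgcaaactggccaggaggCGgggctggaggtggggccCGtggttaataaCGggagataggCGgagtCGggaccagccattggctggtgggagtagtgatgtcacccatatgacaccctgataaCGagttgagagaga
Hoxd3: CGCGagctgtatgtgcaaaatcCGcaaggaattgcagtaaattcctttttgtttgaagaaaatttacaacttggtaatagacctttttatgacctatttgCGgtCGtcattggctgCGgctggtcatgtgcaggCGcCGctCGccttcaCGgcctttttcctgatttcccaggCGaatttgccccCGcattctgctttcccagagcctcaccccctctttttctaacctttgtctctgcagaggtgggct
Lhx6: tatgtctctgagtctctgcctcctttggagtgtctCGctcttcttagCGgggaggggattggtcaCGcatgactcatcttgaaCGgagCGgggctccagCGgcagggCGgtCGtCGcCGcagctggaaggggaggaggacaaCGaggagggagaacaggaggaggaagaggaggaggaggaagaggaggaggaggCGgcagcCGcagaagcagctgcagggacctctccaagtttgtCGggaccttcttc
Sox6: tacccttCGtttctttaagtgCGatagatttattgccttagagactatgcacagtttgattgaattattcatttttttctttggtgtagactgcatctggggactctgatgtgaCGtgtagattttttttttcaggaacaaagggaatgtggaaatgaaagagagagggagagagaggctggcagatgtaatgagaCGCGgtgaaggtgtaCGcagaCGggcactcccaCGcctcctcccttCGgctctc
The number of CG dinucleotides in these windows was 10 for Tbx1, 15 for Pax6, 17 for Sox11, 12 for Hoxd3, 14 for Lhx6 and 9 for Sox6. A RefSeq window was matched for 53 of the 84 RNAs. CG was searched as those letters, which read the same on both strands, and at least 1 was found in all 53 windows and in 99.0% of the 8376 windows of other listed pcRNAs. The median number of CG was 12 in the family windows and 16 in the other windows. It was 9.50 for the 22 matched RNAs listed in H3K27me3-RADIP alone and 14 for the 28 listed in both tables, against 12 and 17 for other pcRNAs of the same standing. A CG count describes the letters of the window and says nothing of its methylation or of the mark on it.

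More of these RNAs were listed in H3K27me3-RADIP than in Input. Of the 84, 79 were listed in H3K27me3-RADIP and 52 in Input, and 47 were listed in both. In H3K27me3-RADIP alone there were 32, or 38.1% (28.4 to 48.8), where the background over all pcRNAs was 13.5%. In Input alone there were 5, or 5.95% (2.57 to 13.2), where the background was 10.5%. At a q-value of 0.01, 27 of 69 were in H3K27me3-RADIP alone (39.1%), against 13.4% of all pcRNAs. At that limit 7 were in Input alone (10.1%), near the 11.3% of all pcRNAs. When the listed pairs of the larger table were drawn once at random to the size of the smaller, 29 of 81 were listed in H3K27me3-RADIP alone (35.8%), against 12.1% of all pcRNAs. In Input alone were 5 (6.17%), against 11.7%. The q-values were not computed again, so this draw does not even out sequencing depth. By the paper's account, Input had more raw reads than H3K27me3-RADIP.

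The surplus lay in short genes. Among genes of 30 kb or less, 30 of 45 family RNAs (66.7%, 52.1 to 78.6) were listed in H3K27me3-RADIP alone, against 22.1% of 4314 other pcRNAs of that length. The share was 14 of 19 under 10 kb, against 29.1% of other pcRNAs, and 16 of 26 from 10 to 30 kb, against 20.1%. Among longer genes it was 2 of 26 from 30 to 100 kb, against 8.85%, and 0 of 13 over 100 kb, against 4.34%. The median gene length was 12 kb for the RNAs listed in H3K27me3-RADIP alone and 67.4 kb for those in both tables.

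**Figure D1:**
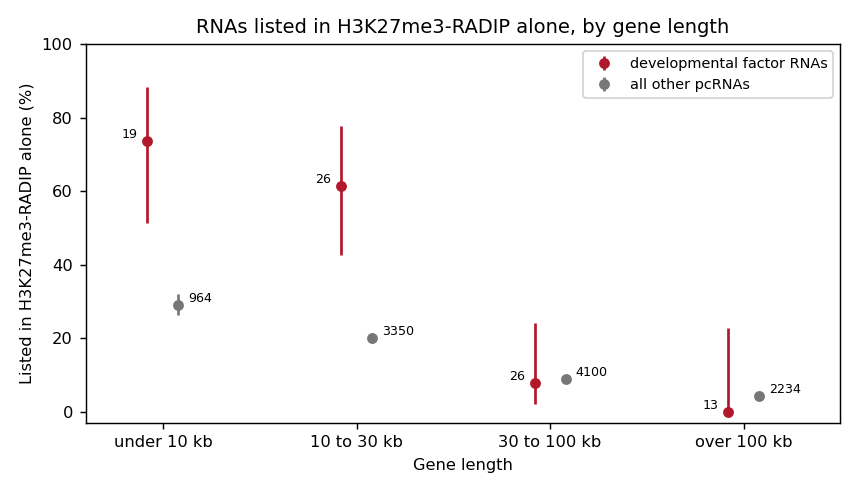
Share of listed RNAs that were listed in H3K27me3-RADIP alone (y axis, percent) by gene length (x axis), for developmental factor RNAs (red) and all other pcRNAs (grey), with 95% Wilson intervals for counting error and the number of listed RNAs beside each point. Family RNAs lie far above the others under 30 kb, at 73.7% and 61.5%, and at or below them in longer genes.

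The families differed in where they were listed. Of the 11 listed Hox RNAs, whose proteins pattern the head-to-tail axis, 7 were in H3K27me3-RADIP alone, 3 in both tables and 1 in Input alone. The other homeobox families (sine oculis, Nkx, Irx, Dlx, Otx, Pitx, Cdx and Barx) had 8 of 13 in H3K27me3-RADIP alone and 2 in Input alone. Zic RNAs, from zinc finger factors of the neural plate, were in 1 table or the other, 2 and 1. By contrast 11 of the 16 Fox RNAs, 5 of the 6 Pax RNAs, 6 of the 9 Lhx and Lmx RNAs, 5 of the 6 Meis and Pbx RNAs and 4 of the 5 Pou RNAs were in both tables. The Gata RNAs had 3 in both and 2 in H3K27me3-RADIP alone, the Tbx RNAs 4 and 2, and the Sox RNAs 3 and 1. With 3 to 16 RNAs in each, the interval of every family for the share in H3K27me3-RADIP alone includes 38.1%. That value is the share over all 84 RNAs, of which each family is a part. No Msx RNA was listed in either table, and within Fox no RNA of the classes a to i, l, q, r or s was listed.

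**Figure D2:**
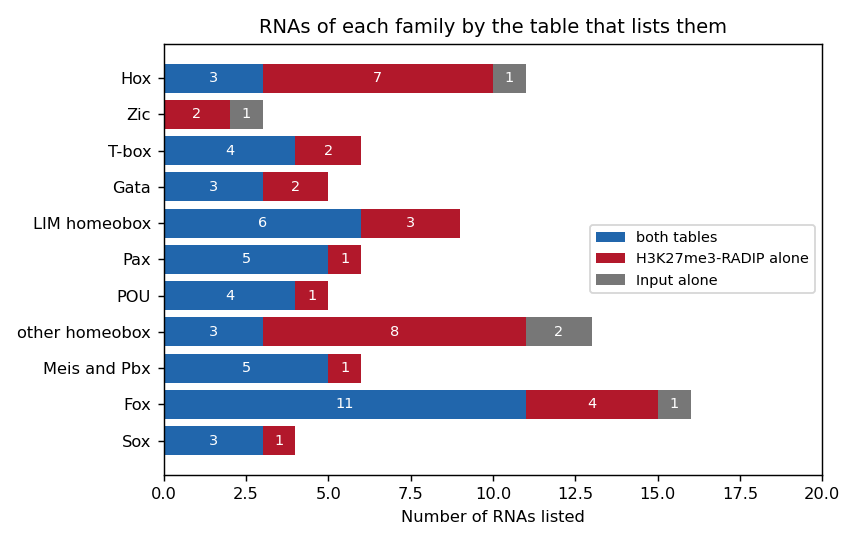
Number of RNAs of each family (x axis) listed in both tables (blue), in H3K27me3-RADIP alone (red) and in Input alone (grey). Hox and the other homeobox families have more RNAs in H3K27me3-RADIP alone than in both tables, whereas Fox, Pax and Meis and Pbx have more in both.

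The 32 RNAs listed in H3K27me3-RADIP alone had few pairs each, from 7 to 45 with a median of 9, and 400 in total. Foxo6, a forkhead factor of the brain, had 45 pairs over 3 bins. Gata2, needed for blood stem cells, had 24 pairs over 2 bins. Hoxb9 had 21, as did Pax6, the eye and forebrain factor. Tbx4 of the hindlimb had 20, Foxm1 of the cell cycle 19 and Zic4 19, followed by Hoxc4 with 17. Foxm1 stands apart in this list in that its protein serves dividing cells in general. The 5 RNAs in Input alone had 9 to 11 pairs each. Among them were Foxn4 with 11 pairs, Six4 with 10 and Hoxa9 with 9, each in a single bin. No fold is given for an RNA listed in 1 table, because the other table has no value for it below the limit.

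The Hox RNAs are set out one by one. In the HoxA cluster Hoxa10 had 10 pairs and Hoxa11 7 in H3K27me3-RADIP and none listed in Input, while Hoxa9 had 9 in Input and none listed in H3K27me3-RADIP. In HoxB, Hoxb3 had 9 in Input and 22 in H3K27me3-RADIP, Hoxb6 had 7 in each and Hoxb9 was listed with 21 in H3K27me3-RADIP alone. Direction was thus mixed in HoxA and even for Hoxb6. In HoxC, Hoxc5 had 9 in Input and 47 in H3K27me3-RADIP, and Hoxc4 with 17 and Hoxc10 with 7 were in H3K27me3-RADIP alone. HoxD was not listed in Input, and in H3K27me3-RADIP Hoxd3 had 16 pairs and Hoxd11 8. Together the Hox RNAs had 34 listed pairs in Input and 162 in H3K27me3-RADIP, none of them over 100 kb apart. The 9 pairs of Hoxa9 held 6 distinct tag positions at a median distance of 0.103 kb. The annotated gene of Hoxc5 spans 50 kb and overlaps Hoxc6, Hoxc8, Hoxc9 and Hoxc10 on the same strand, and that of Hoxd3 overlaps Hoxd4, so tags of these neighbours can be counted under 1 name.

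Counted over pairs, the 84 RNAs gave 7540 of the Input pcRNA pairs (0.598%, 0.585 to 0.611) and 9231 of those in H3K27me3-RADIP (0.679%, 0.665 to 0.693). A few long genes held most of them. Foxn3 and Foxp1 made up 33.3% of the family pairs in Input and 29.4% in H3K27me3-RADIP, and the 5 RNAs with the most pairs, these and Pou2f1, Pbx3 and Foxo3, made up 61.3% and 55.9%. Without those 5 the log2 ratio of the family share between the tables was 0.37, against 0.18 (0.14 to 0.23) with them. The 13 genes over 100 kb had 5325 and 5826 pairs, a scaled ratio of 1.07 (1.03 to 1.11), and the 71 genes of 100 kb or less had 2215 and 3405, a scaled ratio of 1.5 (1.42 to 1.59), or 1.36 (1.28 to 1.43) over the 34 of them in both tables. Scaling here and below is by the trimmed mean of M-values (TMM) over all pcRNAs in both tables.

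**Figure D3:**
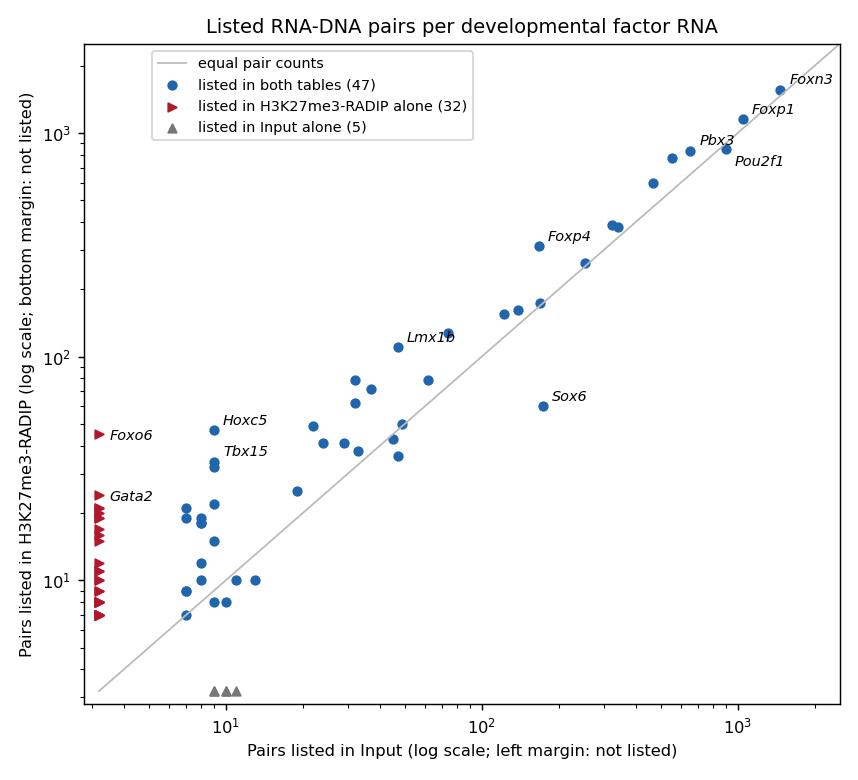
Listed pairs per developmental factor RNA in Input (x axis) and H3K27me3-RADIP (y axis), both on log scales, with RNAs listed in 1 table drawn on the margins as triangles and the line of equal counts in grey. Most points with under 100 pairs lie above the line, the largest RNAs lie close to it, and Sox6 lies far below it.

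By family, listed pairs were pooled over the RNAs in both tables, a choice made after the data were seen, since an RNA listed in 1 table has no value in the other. On this basis the scaled ratio was 2.97 (1.87 to 4.88) for the 3 Hox RNAs, with 25 and 76 pairs, and 2.4 (1.58 to 3.72) for the 4 Tbx RNAs, with 33 and 81. Most of the Hox difference came from Hoxc5, with 9 and 47 pairs, while Hoxb3 had 9 and 22 and Hoxb6 7 and 7. The scaled ratio was 1.8 (1.44 to 2.25) for Lhx and Lmx, 1.61 (1.3 to 1.99) for Pax and 1.63 (1.11 to 2.41) for Gata. The 3 RNAs of the other homeobox families had 28 and 31 pairs and a ratio of 1.08 (0.628 to 1.87), so their surplus lay in which RNAs were listed. The families with the most pairs had ratios near 1, with 1.23 (1.14 to 1.33) for Meis and Pbx, 1.13 (1.08 to 1.17) for Fox, 1.08 (0.97 to 1.19) for Sox and 0.977 (0.894 to 1.07) for Pou. Combinations of an RNA and a bin under the authors' limit are still missing from these counts.

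Single RNAs were compared where an RNA was in both tables with at least 40 pairs together, and a log2 ratio of at least 0.5 either way was called. Of 31 such RNAs, 11 were higher in H3K27me3-RADIP (35.5%), where 18.4% of 5936 pcRNAs were, and 1 was lower (3.23%), where 20.9% were. The median log2 ratio was 0.32 over these RNAs and 0.01 over all pcRNAs. The shift lay again in genes of 100 kb or less, with 9 of 18 higher (50%) and 0 lower and a median of 0.60, where 17.3% of all pcRNAs of that length were higher and 23.6% lower and the median was -0.03. In longer genes 2 of 13 were higher (15.4%) and 1 lower (7.69%) with a median of 0.22, where 20.8% of all pcRNAs were higher and 14.8% lower and the median was 0.09.

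The highest ratio was that of Hoxc5, with 9 pairs in Input and 47 in H3K27me3-RADIP and a log2 ratio of 2.35 (1.31 to 3.57). Tbx15, a T-box factor of skeleton and skin, had 9 and 34 pairs and a log2 ratio of 1.89 (0.80 to 3.13). Lhx6, a LIM homeobox factor of forebrain interneurons, had 9 and 32 and a log2 ratio of 1.80 (0.70 to 3.05). These 3 RNAs had 1 bin each in Input and 3 in H3K27me3-RADIP, so new bins carried much of the difference. Pou2f2, a POU factor of B cells, had 32 and 79 pairs in 3 and 4 bins, and a log2 ratio of 1.27 (0.66 to 1.91). Lmx1b, a LIM homeobox factor of limb and midbrain, had 47 and 110 pairs in the same 4 bins and a log2 ratio of 1.19 (0.69 to 1.72). The other 6 RNAs called higher were Meis1, Pax7, Pax2, Foxp4, Sox13 and Pou2f3, at log2 ratios from 0.74 to 1.12.

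Sox6, an SoxD factor of cartilage, muscle and red cells, was the one RNA called lower. It had 174 pairs over 17 bins in Input and 60 pairs over 6 bins in H3K27me3-RADIP, a log2 ratio of -1.57 (-2.02 to -1.14). The difference lay in which bins were listed, because in the 4 bins shared by both tables it had 41 and 34 pairs and a log2 ratio of -0.22 (-0.92 to 0.47). Within 2 kb of its own start it had 0 DNA tags in Input and 5 in H3K27me3-RADIP. Its relative Sox5 had 466 and 597 pairs and a log2 ratio of 0.33 (0.15 to 0.50), with 35 bins shared of 38 and 43. Other low ratios were -0.12 (-0.26 to 0.02) for Pou2f1, -0.10 (-0.74 to 0.54) for Foxn2 and -0.00 (-0.60 to 0.60) for Pbx4, whose intervals all include 0.

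The listed bins were then limited to combinations present in both tables, an alternative added after the data were seen. On this basis 7 of 27 RNAs were higher (25.9%), against 8.87% of 5274 pcRNAs, and 0 were lower, against 12.5%. Lmx1b (1.28, 0.77 to 1.80), Pou2f2 (1.05, 0.42 to 1.71), Pax7 (1.01, 0.42 to 1.63) and Foxp4 (0.78, 0.49 to 1.07) kept log2 ratios above the limit. So did Pax2 (0.64, -0.04 to 1.33) and Sox13 (0.53, 0.08 to 0.98). Gata4, not called over all listed bins, reached 0.55 (-0.17 to 1.29), and Pou2f3 lost its call at 0.42 (-0.39 to 1.25). Hoxc5 at 1.34 (0.17 to 2.65) and Lhx6 at 0.79 (-0.50 to 2.16) fell below 40 pairs and were not called. The log2 ratio of Meis1 was -0.01 (-0.95 to 0.92) and that of Tbx15 0.20 (-1.25 to 1.68), so their differences in listed pairs lay in bins listed in H3K27me3-RADIP alone.

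**Figure D4:**
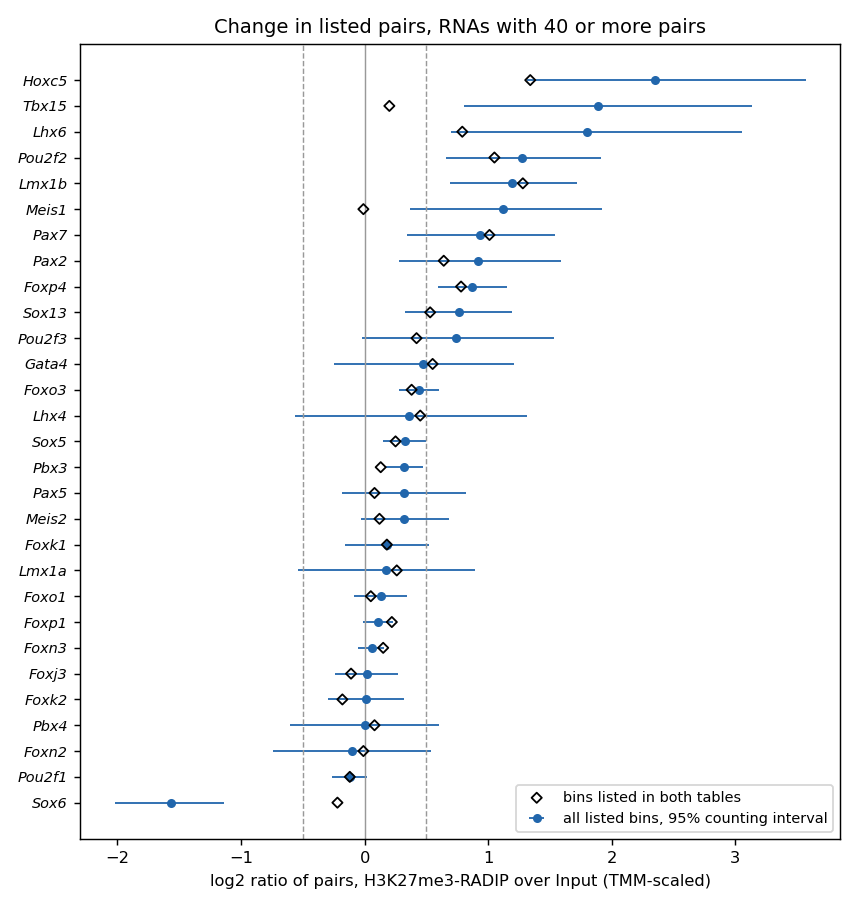
Log2 ratio of listed pairs in H3K27me3-RADIP over Input (x axis, TMM-scaled) for 29 of the 31 RNAs in both tables with at least 40 pairs, with 95% exact counting intervals (blue) and, as open diamonds, the ratio in bins listed in both tables; dashed lines mark 0.5 either way. Of the blue points 11 lie at or above 0.5 and 1, Sox6, at or below -0.5, and the diamonds of Sox6, Meis1 and Tbx15 lie near 0.

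Every pair of the 84 RNAs joined RNA and DNA on the same chromosome, as did nearly all listed pairs, since over all pcRNAs 37 pairs in Input and 341 in H3K27me3-RADIP joined different chromosomes. The share of pairs with tags over 100 kb apart was 40.2% in Input, with 3028 pairs, and 42.1% in H3K27me3-RADIP, with 3882, a difference of 1.89 percentage points (0.40 to 3.39). Over all pcRNAs the shares were 36.4% and 43.7%. Pairs over 1 Mb apart made up 1.10% and 1.86% of the family pairs, below the 4.48% and 7.04% of all pcRNAs. The median distances in Input and H3K27me3-RADIP were 55.7 and 63.4 kb, against 44.4 and 68.8 kb over all pcRNAs. Of 30 RNAs with at least 10 pairs in each table, 23 (76.7%) had a longer median in H3K27me3-RADIP, where the background was 69.5%. Without the 5 RNAs with the most pairs, named above, the difference in the long-range share was -1.49 percentage points, whereas with the 30 RNAs weighted equally it was 2.64.

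The shares were also taken by gene length. In genes over 100 kb the share over 100 kb apart was 47.7% in Input and 54.1% in H3K27me3-RADIP, close to the 48.2% and 54.9% of other pcRNAs of that length. In genes of 100 kb or less it was 22% and 21.4%, whereas in other pcRNAs of that length it was 14.3% and 21.1%. The direction turned when only RNAs in both tables were kept, at 22.5% (20.8 to 24.3) and 24.3% (22.8 to 25.8), against 14.6% and 21.8% for other pcRNAs. Of 18 such genes with at least 10 pairs in each table, 13 (72.2%) had a longer median distance in H3K27me3-RADIP, near the 69.5% of all pcRNAs. For the families of mostly short genes the listed pairs were local. No listed pair of a Hox, Lhx, Lmx, Gata, Tbx, Zic or other homeobox RNA reached 100 kb in either table, and Pax had 4 and 3 such pairs, from Pax5. No listed combination had fewer than 7 pairs, so far contacts scattered over many bins would not be listed for RNAs with so few pairs.

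Among the RNAs in the plot of long-range shares, Pbx3 and Pou2f1 differed most between the tables in the share of pairs over 100 kb apart. Pbx3, a TALE homeobox cofactor of Hox proteins in a gene of 202 kb, had 366 of 654 pairs (56.0%) over 100 kb apart in Input and 604 of 832 (72.6%) in H3K27me3-RADIP. Its median distance was 124 and 234 kb, and its pairs over 1 Mb apart were 0 and 28. The bins listed numbered 36 and 46, of which 33 were shared, and the share of its DNA tags inside its own gene was 43.1% and 24.2%. Pou2f1, a POU factor present in most cell types, had 383 of 899 pairs (42.6%) over 100 kb in Input and 499 of 845 (59.1%) in H3K27me3-RADIP, with medians of 70.3 and 139 kb. Its total barely differed, so near pairs were fewer and far pairs more, with 48.4% and 27.1% of its DNA tags inside its own gene.

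Other RNAs with long reach had smaller differences in this share. Foxn3, a forkhead repressor, had medians of 147 and 149 kb and Foxp1, a forkhead factor of lymphocytes and lung, 137 and 162 kb. Foxo3, a forkhead effector of insulin signalling, had 210 of 555 pairs (37.8%) and 355 of 770 (46.1%) over 100 kb, and medians of 63.2 and 85.4 kb. Sox5, in a gene of 954 kb, had 163 of 466 pairs and 263 of 597 over 100 kb, and medians of 29.4 and 67.2 kb. Foxo1 had medians of 58.9 and 82.3 kb. The farthest listed bin of Foxn3 was at chr12:112650001-112675000, a bin that overlaps Akt1, with 8 pairs at a median of 13382 kb in H3K27me3-RADIP and a q-value of 0.0641, while in Input its farthest bin had a median of 1357 kb. That single bin rests on 7 distinct tag positions. The farthest bin of Pbx3 in Input, at 769 kb, overlapped a part of Lmx1b, and that in H3K27me3-RADIP, at 1618 kb, overlapped Ttll11.

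**Figure D5:**
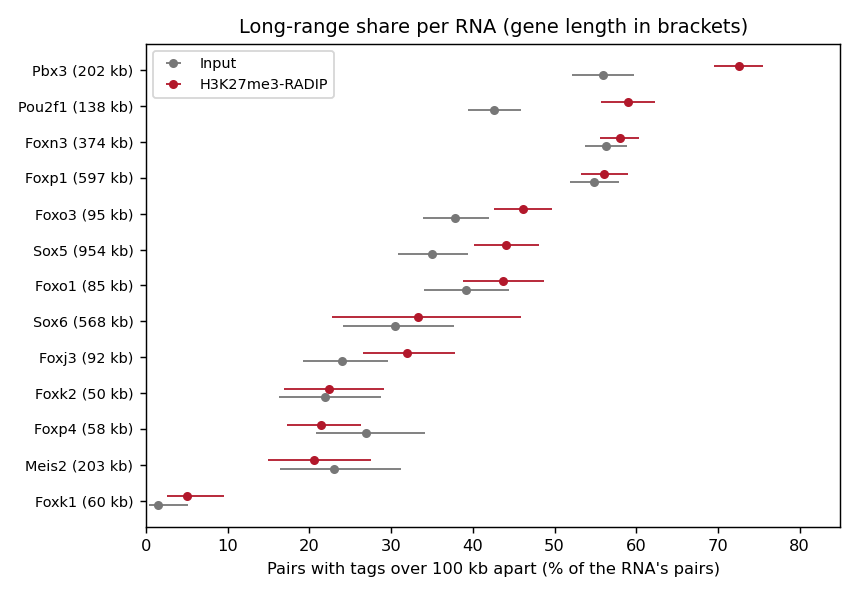
Share of an RNA's pairs with tags over 100 kb apart (x axis, percent) in Input (grey) and H3K27me3-RADIP (red), with 95% Wilson intervals for counting error, for 12 of the RNAs with at least 100 pairs in both tables and Sox6, with the gene length in brackets. The intervals of Pbx3, Pou2f1, Foxo3 and Sox5 do not overlap between the tables, while those of Foxn3 and Foxp1 do.

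Within their own genes, the family RNAs had 60.9% of their DNA tags in Input and 56.5% in H3K27me3-RADIP, against 56.9% and 48.6% over all pcRNAs. Tags within 2 kb of the RNA's own start made up 1.02% (77 of 7540, 0.818 to 1.27) of the Input pairs and 2.01% of the H3K27me3-RADIP pairs, where all pcRNAs had 1.68% and 1.61%. In genes of 100 kb or less the shares were 2.21% and 4.23%, against 3.56% and 3.39% in other pcRNAs of that length. RNAs listed in H3K27me3-RADIP alone are part of this, and among RNAs in both tables the difference was 0.396 percentage points, against 0.994 over all of them. By family, the share near the start was lower in H3K27me3-RADIP than in Input for Gata (8.41% against 17.8%), Tbx (10.2% against 12.1%) and Meis and Pbx (0.810% against 0.939%). It was higher for the other families. Tbx1, a T-box factor of the pharynx and heart, had 3 of 8 pairs near its start in Input and 9 of 18 in H3K27me3-RADIP. Sox11, a factor of neural precursors, had 6 of 11 and Pax6 6 of 21 in H3K27me3-RADIP, and 1 tag of Pax6 fell in the window printed above. Foxo1, another forkhead effector of insulin signalling, had 1 of 340 and 10 of 380, while Pbx3 had 11 of 654 and 3 of 832.

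DNA bins that hold the start of another gene of the 210 took 43 family pairs in Input (0.570%, 0.424 to 0.767), from 5 RNAs, and 147 in H3K27me3-RADIP (1.59%, 1.36 to 1.87), from 11 RNAs. Many of these bins also overlap the RNA's own gene, and the DNA tag lay inside that gene in 20 of the 43 pairs and 81 of the 147, which leaves 23 and 66 pairs outside it. Most were within the same Hox cluster, where several starts share a bin. In H3K27me3-RADIP, Hoxb9 RNA had 12 pairs with the bin of the Hoxb6, Hoxb7 and Hoxb8 starts, at chr11:96275001-96300000, which also holds the end of Hoxb9, and 10 of them lay outside Hoxb9. Hoxc5 RNA had 18 pairs with the bin of the Hoxc4 start, at chr15:103000001-103025000, of which 17 lay inside the annotated gene of Hoxc5 itself. All 11 pairs of Zic4 RNA with the bin of the Zic1 start lay inside Zic4, whose own start is in that bin. Outside these clusters there were few such links. Pbx3 RNA met the bin of the Lmx1b start, at chr2:33625001-33650000, with 10 pairs in Input and 19 in H3K27me3-RADIP. Pou2f1 RNA met that of Tbx19 with 8 pairs in H3K27me3-RADIP alone. All of these pairs lay outside the RNA's own gene. Each of these partners lies on the same chromosome as the RNA's gene. The share of pairs in such bins was not taken over other pcRNAs, so whether it is particular to these families is not known. Of the RNAs with such pairs, Hoxa10, Hoxa11, Hoxb9, Hoxc10, Hoxd11 and Zic4 were listed in H3K27me3-RADIP alone and Hoxa9 in Input alone. These RNAs add to only 1 side of the comparison.

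In Input 24 of 52 RNAs (46.2%) had a single bin and in H3K27me3-RADIP 39 of 79 (49.4%), against 34.9% and 35.5% of all pcRNAs. There were 11 (21.2%) and 12 RNAs (15.2%) with 10 or more bins, up to 59 and 60 for Foxn3, against 16.2% and 17.4%. The tables held 426 and 511 combinations of these RNAs with a bin, of which 330 were shared, that is 77.5% of the Input combinations and 64.6% of those in H3K27me3-RADIP, near the 76.7% and 67.1% of all pcRNAs.

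The RNA tags lay mostly in introns, as tags of unspliced RNA do, with 92.7% (92.1 to 93.2) in Input and 91.2% (90.7 to 91.8) in H3K27me3-RADIP, against 88.9% and 89.6% over all pcRNAs. Coding exons held 2.45% (2.13 to 2.83) and 3.13% (2.79 to 3.51), and 3′ UTRs 2.61% (2.28 to 3.0) and 3.26% (2.92 to 3.64). In genes of 100 kb or less coding exons held 4.42% (3.64 to 5.36) and 6.34% (5.57 to 7.21), and in longer genes 1.63% and 1.25%. Among RNAs in both tables the difference in intron share was -0.388 percentage points, against -1.42 (-2.24 to -0.60) over all of them, so the RNAs listed in 1 table carried most of it.

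For comparison a list was made, also with earlier results of these data known. It holds 115 other developmental transcription factors outside these families, such as the Ebf, Runx, Gli, Prdm and Tfap2 genes. Their listed genes had a median length of 91.3 kb, against 27.7 kb for the families described here. Of 55 listed, 39 were in both tables, 14 in H3K27me3-RADIP alone (25.5%, 15.8 to 38.3), where the background was 13.5%, and 2 in Input alone (3.64%), where it was 10.5%. Of 34 with at least 40 pairs, 13 were higher in H3K27me3-RADIP (38.2%), where 18.4% of pcRNAs were, and 1 was lower (2.94%), where 20.9% were, with a median log2 ratio of 0.36. Rfx4 had the highest log2 ratio among them, 2.13, with 15 and 67 pairs, followed by Lef1, the partner of beta-catenin, at 1.5 with 18 and 52. The RNA called lower was Zeb2, with 27 and 14 pairs and a log2 ratio of -0.98. Whether the lists differ was not tested.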

How the data were processed

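Libraries of Input and H3K27me3-RADIP were compared as the merged tables that the authors deposited, 1 per condition. Each deposited line carries a p-value and a q-value that the authors computed for its combination of RNA and 25-kb bin, and they kept q-values up to 0.1. The submitters' processing notes list CASAVA 1.8.2, BWA 0.7.15-r1140 and STAR 2.5.0a without their roles. In the study's methods, tags uniquely mapped to mm10 by BWA were kept, RNA tags were annotated with GENCODE, and STAR is named for other, public RNA-seq reads. Lines were counted per RNA name, so counts are numbers of listed pairs. An older GENCODE release of that build held all 84 genes and gave their positions, and RefSeq gave the promoter windows.

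The RNAs and lists were chosen with earlier results of these data known. Distances were taken between tag centres. Pair counts were scaled by TMM (trims of 30% and 5%) coded in Python 3.11.15 (scipy 1.17.1, pandas 2.3.3, numpy 2.4.6), and the ratio and its interval were tested on simulated data. Figures used matplotlib 3.10.9. No test was made, since each condition had 1 table.

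RNAs named were each listed Hox gene, the 5 with the most pairs per table, the 5 highest and 5 lowest log2 ratios, the 8 and 5 with the most pairs among those listed in 1 table, and the 5 with the longest median distance per table. Some RNAs that this rule names are not reported here. Others were named after their values were seen. Alternatives were a q-value of 0.01, repeated tag positions counted once, other minimum numbers, limits, scaling and weights, and subsets of RNAs.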

Additional observations from a re-analysis of the deposited data

How the results depend on the processing

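No paired analysis was possible because the authors merged the replicates and the columns carry no replicate number. For the same reason no replicate was left out, and ratios rest on listed pairs alone, so contacts under the authors' limit are missing from them. Depth limits the RNAs with 7 to 15 pairs, where 1 bin decides whether an RNA is listed.

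Requiring 15 pairs for an RNA to be listed left 28 in both tables, 20 in H3K27me3-RADIP alone and 0 in Input alone, against 12.3% and 10.6% of all pcRNAs in 1 table alone. The 2 direction changes were in the long-range share (-1.49 percentage points) and the log2 ratio of median distances (-0.13, against 0.19), both without the 5 RNAs with the most pairs. Without those 5, the log2 ratio of the family share was 0.37, and the differences near the start and in introns were 2.27 and -3.10 percentage points. Over RNAs listed in both tables, the log2 ratios of the family share and of the median distance were 0.13 and 0.33, and the differences over 100 kb, near the start and in introns were 3.54, 0.396 and -0.388 points. Weighting RNAs equally gave a log2 ratio of median distances of 0.39, and a start window of 1 kb a difference of 0.427 points. The RNAs called higher numbered 7 in combinations present in both tables (0 lower), 6 at a log2 limit of 1 and 19 with no minimum of pairs. In shared combinations the log2 ratio of Meis1 was -0.01. The other 47 alternatives for these results kept their direction, and among them the difference over 100 kb was 3.26 points at a q-value of 0.01 and the difference over 1 Mb 0.762. Library totals in place of TMM left the 12 called RNAs with their calls. At a q-value of 0.01 and with distinct tag positions their log2 ratios stayed past the limit, but Lhx6 under both, Meis1 under the first and Tbx15 under the second fell below 40 pairs and were not called, so 11 and 10 RNAs were higher. Gata4 was then called under both (1.64 and 0.60) and Lmx1a at a q-value of 0.01 (1.43), and Lhx4 passed the limit with distinct positions (0.54) but not the minimum of pairs.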

Other observations

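Pairs whose tags lie side by side were counted after the data were seen. Of the family pairs, 297 in Input (3.94%, 3.52 to 4.40) and 276 in H3K27me3-RADIP (2.99%, 2.66 to 3.36) had tag centres within 50 bp of each other, against 2.72% and 2.11% of other pcRNA pairs. Of these the DNA tag was on the same strand as the RNA tag in 88.9% (84.8 to 92.0) and 88.0% (83.7 to 91.4), whereas beyond 1000 bp it was in 51.0% and 49.4%. Other pcRNAs showed the same split, with 85.7% and 87.1% within 50 bp and 50.4% and 50% beyond 1000 bp.

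Such pairs weigh most on RNAs with few pairs. Within 100 bp lay 17.0% (13.6 to 21) of the pairs of the 32 RNAs listed in H3K27me3-RADIP alone and 20.4% (11.5 to 33.6) of those in Input alone, close to 16.4% and 14.1% for other pcRNAs listed in 1 table. Otx1, a homeobox factor of the forebrain, had a median distance of 0.0510 kb over its 7 pairs, and Six4 one of 0.124 kb over 10. With these pairs left out and combinations of at least 7 pairs kept, 28 family RNAs were listed in H3K27me3-RADIP alone (40%), 6 in Input alone (8.57%) and 36 in both, against 13.8% and 10.3% of all pcRNAs in 1 table. The RNAs called higher were then 11 of 28 (39.3%) and those called lower 1, against 18.3% and 21.5% of 5643 pcRNAs.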
